A study of Mus musculus with 15 samples.

Results

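The measurement described here is the interaction of SIRT5 genotype and transverse aortic constriction (TAC), the difference between the response to TAC in SIRT5OE hearts and the response in WT hearts. It was taken over all 15 hearts of the series and for 16690 of the 36727 genes in the table, those whose normalized count reached 10 in 3 or more hearts. For each gene the value is SIRT5OE TAC minus SIRT5OE sham, minus WT TAC minus WT sham, on log2(normalized count + 1). A value below 0 means that the SIRT5OE response was the more negative of the pair, which for a gene that rises after TAC is a smaller rise. The log2(value + 1) scale understates the change of low genes.

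The groups were SIRT5OE TAC (4 hearts), SIRT5OE sham (3 hearts), WT TAC (4 hearts) and WT sham (4 hearts), all from male littermate mice of 4 to 8 months taken 4 weeks after surgery. TAC ties a constriction around the aortic arch so that the left ventricle pumps against a raised pressure, and sham mice had the surgery without the constriction. SIRT5OE mice carry a SIRT5 cDNA under the CAGGS promoter in the 3′ UTR of the Col1a1 locus, from 1 embryonic stem cell clone, and a germline Sox2-Cre recombination removed the stop cassette, so the transgene is on in the whole body and not only in cardiomyocytes. RNA came from pulverised whole hearts and each library was made from 1 heart. In such bulk RNA, fewer cells of a type and less RNA per cell cannot be told apart. The labels name no litter, surgery day or batch for a heart, so p-values measure the spread between these hearts only.

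SIRT5 is a mitochondrial sirtuin, an NAD-dependent enzyme that takes succinyl, malonyl and glutaryl groups off lysines of enzymes of fuel oxidation. The heart draws most of its ATP from fatty acids burned in mitochondria. Under pressure overload cardiomyocytes enlarge, switch on genes of the fetal heart and lower those of fatty acid oxidation and the respiratory chain, while fibroblasts become myofibroblasts and lay down collagen. An interaction asks whether a genotype alters the size of that response, which is a separate question from whether the response passes a threshold in one genotype and misses it in the other.

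Sirt5 itself gave a check of the labels. Its normalized counts were 43932, 30432, 32512 and 35703 in SIRT5OE TAC hearts, 38589, 41951 and 42058 in SIRT5OE sham hearts, 2113, 1574, 2034 and 1853 in WT TAC hearts and 2028, 2215, 2065 and 2366 in WT sham hearts. Every SIRT5OE heart lay far above every WT heart. The response to TAC was -0.21 in SIRT5OE (adjusted p = 0.339) and -0.20 in WT (adjusted p = 0.186, limma), and the interaction was -0.01 (SE 0.17, 95% interval -0.36 to 0.35). Normalized counts summed to between 56234000 and 74282000 per heart. Correlations between hearts over the log2 values ran between 0.918 and 0.986, and at most 0.593% of the values of 2 hearts were identical, so no 2 libraries held the same data. On the first principal component, SIRT5OE TAC replicate 3 scored among the WT TAC hearts, and WT TAC replicate 3 scored lowest of the WT TAC hearts.

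The first principal component of the 500 genes of largest variance held 35.8% of their variance and followed TAC. Scores were 2.54, -1.63, 33.9 and -6.90 in SIRT5OE TAC hearts, -25.4, -22.5 and -27.1 in SIRT5OE sham hearts, 31.4, 48.4, 19.4 and 49.9 in WT TAC hearts and -22.1, -24.3, -25.1 and -30.5 in WT sham hearts. The sham hearts of both genotypes shared 1 range, 3 of the 4 SIRT5OE TAC hearts lay between the sham hearts and every WT TAC heart, and SIRT5OE TAC replicate 3 lay inside the WT TAC range. The shift after TAC was 32.0 in SIRT5OE and 62.8 in WT, a difference of -30.8. A two-sided exact permutation test of that difference, over 2450 arrangements of genotype within the sham and within the TAC hearts, gave p = 0.0592 (adjusted over 2 single values, 0.0592), where the smallest p it can give is 0.000408. Without SIRT5OE TAC replicate 3 the difference was -42.6 (exact permutation p = 0.0212), without SIRT5OE sham replicate 1 it was -33.4 (exact permutation p = 0.0457) and without SIRT5OE sham replicate 3 it was -34.3 (exact permutation p = 0.0362). The other hearts left out in turn gave an exact permutation p between 0.0514 and 0.163, the highest without WT TAC replicate 4 (-21.8), so whether the value passed depended on single hearts.

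The share of normalized counts in mitochondrially encoded genes differed more clearly. It was 31.0%, 31.4%, 27.9% and 35.0% in SIRT5OE TAC hearts, 34.6%, 34.5% and 33.8% in SIRT5OE sham hearts, 25.8%, 22.9%, 27.2% and 19.8% in WT TAC hearts and 35.4%, 35.9%, 36.2% and 34.7% in WT sham hearts. All 4 SIRT5OE TAC hearts lay above all 4 WT TAC hearts, though by little between SIRT5OE TAC replicate 3 and WT TAC replicate 3. Group means were 31.3 ± 2.91% in SIRT5OE TAC, 34.3 ± 0.432% in SIRT5OE sham, 23.9 ± 3.30% in WT TAC and 35.5 ± 0.656% in WT sham (SD, n = 4, 3, 4 and 4 hearts). The share after TAC differed from sham by -3.01 percentage points in SIRT5OE and by -11.6 in WT, an interaction of 8.60 percentage points (two-sided exact permutation test, p = 0.000816, adjusted p = 0.00163). All SIRT5OE sham hearts lay under all WT sham hearts, a genotype difference of -1.24 percentage points. Genotype was permuted within sham as well as within TAC hearts, so the p also draws on that sham difference. With each heart left out in turn the interaction stayed between 7.21 and 9.74 percentage points, with exact permutation p between 0.000816 and 0.00490.

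**Figure D1:**
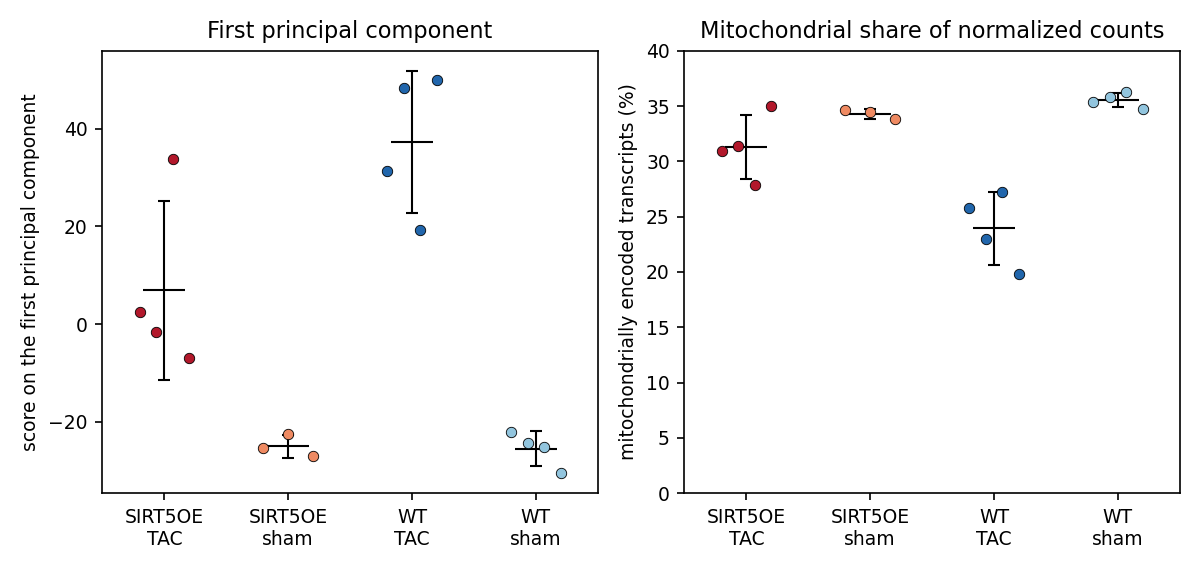
First principal component (left, score) and share of normalized counts in mitochondrially encoded genes (right, %) in each heart of the 4 groups; points are hearts, the dash and bar are the mean and SD. On the left 3 SIRT5OE TAC hearts sit between -6.90 and 2.54, under every WT TAC heart (19.4 to 49.9), and 1 sits at 33.9; on the right SIRT5OE TAC hearts span 27.9% to 35.0% and WT TAC hearts 19.8% to 27.2%.

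The responses of the genotypes were also set against each other across genes. Over the 12283 genes of mean normalized count of at least 100, the SIRT5OE response rose by 0.455 for each log2 unit of the WT response (least squares), or 0.537 by the major axis, which allows for error in both, with Pearson's r = 0.721. These are descriptions across genes, which are not independent replicates, of responses that share no hearts. Taken heart by heart against the SIRT5OE sham mean, the slope was 0.408, 0.337, 0.811 and 0.263 for SIRT5OE TAC replicates 1 to 4 (mean 0.455, SD 0.245, n = 4). SIRT5OE TAC replicate 3 had the slope nearest to that of an equal response, and the other hearts lay between 0.263 and 0.408. Without that heart the slope was 0.336.

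**Figure D2:**
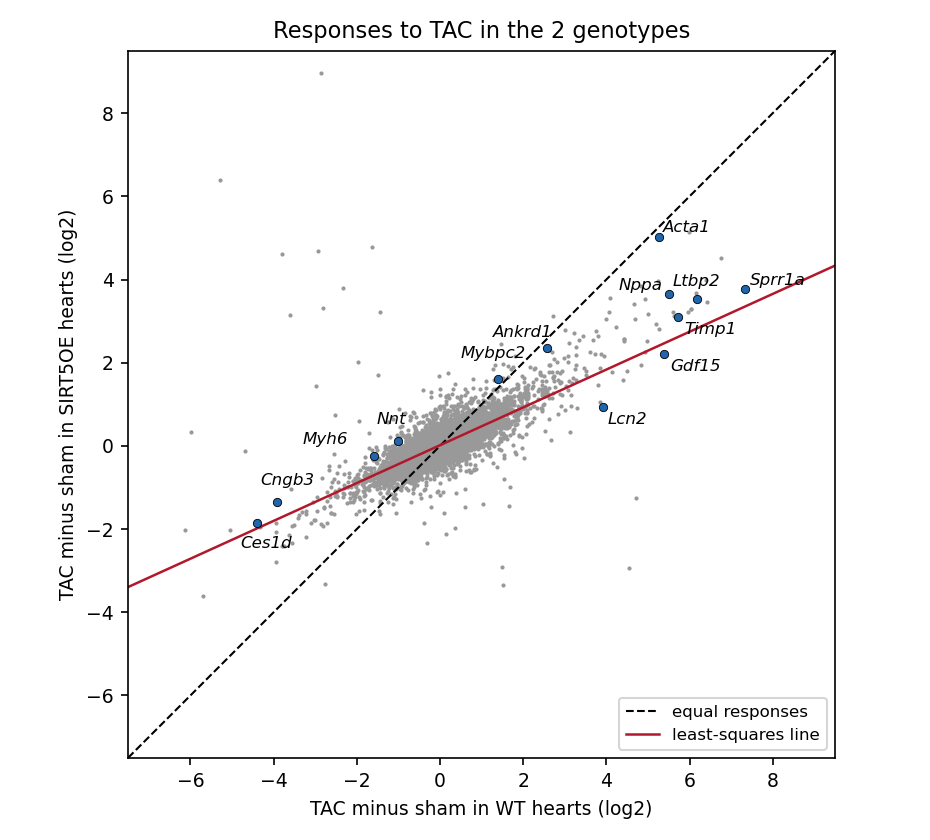
Response to TAC (TAC minus sham, log2 of normalized count + 1) in SIRT5OE hearts (y axis) against WT hearts (x axis) for 12283 genes; the dashed line marks equal responses and the red line is the least-squares fit of slope 0.455. Most named genes lie between the dashed line and 0, while Acta1, Ankrd1 and Mybpc2 lie on or near the dashed line.

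Gene by gene, TAC changed 831 genes in SIRT5OE at an adjusted p under 0.05 (limma, Benjamini-Hochberg over the 16690 genes): 520 rose (3.12% of the genes tested) and 311 fell (1.86%). In WT it changed 5631, of which 2881 rose (17.3%) and 2750 fell (16.5%). The 717 genes called in both genotypes all moved in the same direction, 114 were called in SIRT5OE alone and 4914 in WT alone. Among the 831 genes called in SIRT5OE, 815 had a WT response of the same sign and 546 (65.7%) had a smaller response in SIRT5OE than in WT, although the choice of these genes favours large SIRT5OE values. Their median response was 0.82 in SIRT5OE and 0.98 in WT. Among the 5631 called in WT, a choice that favours large WT values, 91.8% had the same sign in SIRT5OE and the median was 0.34 in SIRT5OE and 0.73 in WT. The SIRT5OE count rested on few hearts: it was 126 without SIRT5OE sham replicate 3, 156 without SIRT5OE sham replicate 1, 300 without SIRT5OE sham replicate 2 and 307 without SIRT5OE TAC replicate 3, while the WT count stayed between 4704 and 6318 with any 1 heart left out.

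The difference of the responses, tested for each gene, passed for 0 of 16690 genes (0%) at an adjusted p under 0.05, with a smallest adjusted p of 0.265. At an unadjusted p under 0.05 the interaction reached 2206 genes (13.2%), 1045 below 0 (6.26%) and 1161 above 0 (6.96%). Of the 5631 genes called after TAC in WT, 1634 were among them, a higher share than over all kept genes. The list shares below are set beside all kept genes, and the lists differ in how many members were called in WT. Array weights, a fit without a mean-variance trend, other scalings, other pseudocounts and other filters also gave 0 calls. The count depended on 1 heart: without WT TAC replicate 3 it was 45, and without SIRT5OE TAC replicate 1 it was 1, a ribosomal protein pseudogene (Rps13-ps2). The median standard error of the interaction was 0.25 and the median half-width of its 95% interval 0.54 on the log2 scale. An interaction that missed the threshold is therefore not evidence that the genotypes responded alike. Of the 717 genes called in both genotypes, 402 (56.1%) had a 95% interval lying within -1 to 1. The share of all kept genes with such an interval was not computed, so 56.1% cannot be read as particular to these genes.

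The 45 genes called without WT TAC replicate 3 comprised 17 below 0 and 28 above 0, and all 45 had the same sign over the 15 hearts, where their highest unadjusted p was 0.0221. They were chosen by a fit that leaves out the WT TAC heart of mildest response, so they describe 14 hearts. Those 14 are among the 15, so the shared sign and low p follow largely from the choice and are no separate support. Over all kept genes, 17.3% rose and 16.5% fell in WT, and 3.12% rose and 1.86% fell in SIRT5OE. After TAC, 44 of these 45 genes were called in WT over all hearts and 1 in SIRT5OE, which their choice favours. Those above 0 included Ndufc1 (1.02, adjusted p = 0.0412), Ndufab1 (1.13, adjusted p = 0.0454), Mpc2 (1.25, adjusted p = 0.0412), Tfb2m (0.82, adjusted p = 0.0429) and Nnt (1.21, adjusted p = 0.0412). Above 0 too were Kcnj3, a channel subunit of the acetylcholine-gated potassium current (2.06, adjusted p = 0.0412), Kcnip2, which assembles with the transient outward channel (1.72, adjusted p = 0.0462), and Adra1a, an alpha-1 adrenergic receptor (1.94, adjusted p = 0.0412). Those below 0 included Igf2bp2 (-2.67, adjusted p = 0.0296), Gadd45g (-2.44, adjusted p = 0.0412), Lcn2 (-3.80, adjusted p = 0.0412) and Fhl1 (-1.90, adjusted p = 0.0462), all by limma.

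The genes of smallest interaction p over all 15 hearts included mitochondrial enzymes that fell in WT and did not pass in SIRT5OE. Nnt, nicotinamide nucleotide transhydrogenase, uses the proton gradient to make mitochondrial NADPH. The table holds 2 gene models of Nnt over nearly the same span, so its reads can be split between them, and the model of small p lies at chr13:119335528-119408952 on the minus strand (GRCm38). Its normalized counts were 17023, 15189.7, 16265 and 24495 in SIRT5OE TAC hearts, 15914, 17111 and 16192 in SIRT5OE sham hearts, 12572, 10473, 12851 and 9342 in WT TAC hearts and 23818, 19585, 25416 and 22170.3 in WT sham hearts. SIRT5OE TAC hearts all exceeded WT TAC hearts, and SIRT5OE sham hearts lay under every WT sham heart, with genotype differences of 0.68 after TAC and -0.47 in sham. Nnt fell by 1.01 in WT (adjusted p = 0.000112) and its response was 0.13 in SIRT5OE (adjusted p = 0.669), an interaction of 1.14 (SE 0.21, 95% interval 0.70 to 1.58, adjusted p = 0.265). The other model had 11071, 12655, 5227 and 8594 in SIRT5OE TAC hearts, 17931, 16744 and 18120 in SIRT5OE sham hearts, 7734, 4846, 11679 and 6522 in WT TAC hearts and 11103, 12290, 8670 and 14031 in WT sham hearts, an interaction of -0.35 (SE 0.38) in the opposite direction.

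Summed over both models, Nnt had 28094, 27845, 21492 and 33088 in SIRT5OE TAC hearts, 33845, 33855 and 34312 in SIRT5OE sham hearts, 20306, 15320, 24530 and 15864 in WT TAC hearts and 34921, 31875, 34086 and 36201 in WT sham hearts. The sham ranges then overlapped, and SIRT5OE TAC replicate 3 lay within the WT TAC range. The summed interaction was 0.56 (SE 0.21, adjusted p = 0.349, limma), less than that of the single model by more than 1.5 times, so the single-model value is uncertain. This sum was added after the values were seen.

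Lactb2, a mitochondrial endoribonuclease (chr1:13623330-13660546), had 1589, 1788, 2033 and 2073 in SIRT5OE TAC hearts and 1936, 1524 and 1313 in SIRT5OE sham hearts, against 992, 1284, 1080.4 and 819 in WT TAC hearts and 1589, 1659, 1842 and 1994 in WT sham hearts. Every SIRT5OE TAC heart lay above every WT TAC heart. The response was 0.24 in SIRT5OE (adjusted p = 0.39), and Lactb2 fell by 0.78 in WT (adjusted p = 0.000901), with an interaction of 1.02 (SE 0.22). Mkks, a chaperonin-like protein of the primary cilium (chr2:136873780-136891389), had 1914, 1444, 1742 and 2154 in SIRT5OE TAC hearts and 1903, 1804 and 1436 in SIRT5OE sham hearts, against 1259.6, 1419, 1178 and 898 in WT TAC hearts and 2115, 2297, 2084 and 2779.5 in WT sham hearts. It fell by 0.97 in WT (adjusted p = 0.000253) and its response was 0.08 in SIRT5OE, an interaction of 1.05 (SE 0.23). Spata33 (1.05, SE 0.20) and Ttc41 (1.51, SE 0.27) had the same form, and both fell in WT (adjusted p = 0.000264 for Spata33 and 4.50e-05 for Ttc41, limma).

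Ndufb1-ps, which the annotation classes as protein-coding and whose symbol ends as those of pseudogenes do, had 14037, 9918, 11904 and 14688 in SIRT5OE TAC hearts, 11052, 9002 and 8576 in SIRT5OE sham hearts, 8565, 7688, 10164 and 6123 in WT TAC hearts and 12347, 10992, 13526 and 12109 in WT sham hearts. Its interaction was 1.01 (SE 0.22), and how reads were divided between it and any near-identical copy was not tested. Gm17428, a gene model of 93 bases at chr14:54976933-54977025, lies inside the span of Myh7 (chr14:54970684-54994626) on the other strand, so its reads cannot be told apart from those of Myh7 without strand. It had 91.5, 77.3, 52.3 and 289 in SIRT5OE TAC hearts, 66.5, 123 and 167 in SIRT5OE sham hearts, 8.19, 2.56, 6.89 and 3.00 in WT TAC hearts and 78.2, 107, 262 and 208 in WT sham hearts, and its interaction was 4.58 (SE 0.77). Gm17428 fell by 4.70 in WT, while Myh7 rose there. The part of Myh7 reads in the Gm17428 values was not tested. Rps13-ps2 jumped between 0 and high values within groups, with 0, 89.6, 491 and 1119 in SIRT5OE TAC hearts, 0, 0 and 0 in SIRT5OE sham hearts, 21.8, 0, 0 and 0 in WT TAC hearts and 16.8, 93.0, 314 and 103 in WT sham hearts, and its value is reported as uncertain.

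Among the 12 genes of smallest interaction p, those below 0 rose in WT and did not pass in SIRT5OE. Igf2bp2, an RNA-binding protein of growth and insulin-like growth factor signalling (chr16:22059009-22163299), had 296, 367, 326 and 143 in SIRT5OE TAC hearts, 312, 346 and 326 in SIRT5OE sham hearts, 896, 1249.6, 345 and 764 in WT TAC hearts and 149.9, 229, 177 and 179 in WT sham hearts. The SIRT5OE TAC hearts overlapped SIRT5OE sham hearts, while WT TAC hearts all lay above WT sham hearts. Igf2bp2 rose by 2.02 in WT (adjusted p = 0.000336) and its response was -0.29 in SIRT5OE (adjusted p = 0.677), an interaction of -2.31 (SE 0.49, 95% interval -3.34 to -1.28). The genotype difference was -1.46 after TAC and 0.85 in sham. Ptprf, a receptor tyrosine phosphatase (chr4:118208213-118291405), had 240.3, 303, 412 and 227 in SIRT5OE TAC hearts, 210.0, 278 and 236 in SIRT5OE sham hearts, 498, 815, 438 and 894 in WT TAC hearts and 166, 136, 195 and 181 in WT sham hearts. It rose by 1.90 in WT (adjusted p = 6.03e-05), against 0.26 in SIRT5OE (adjusted p = 0.606), with an interaction of -1.65 (SE 0.35).

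Cxcl2, a chemokine that draws neutrophils (chr5:90903871-90905938), had 3.75, 5.04, 7.76 and 5.22 in SIRT5OE TAC hearts, 18.4, 10.1 and 4.84 in SIRT5OE sham hearts, 44.8, 41.9, 34.5 and 52.9 in WT TAC hearts and 6.08, 13.9, 2.95 and 5.35 in WT sham hearts. Its WT TAC hearts did not overlap any other group, and it rose by 2.62 in WT (adjusted p = 0.00076), against -0.78 in SIRT5OE (adjusted p = 0.408), an interaction of -3.40 (SE 0.71). Dio3, the deiodinase that inactivates thyroid hormone (chr12:110279068-110281097), was listed at 0 in all 4 WT sham hearts, so its fitted values depend on the pseudocount and no fold is given. It had 9.77, 13.2, 51.3 and 16.1 in SIRT5OE TAC hearts, 9.50, 5.54 and 3.57 in SIRT5OE sham hearts and 64.2, 213, 25.4 and 503 in WT TAC hearts.

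**Figure D3:**
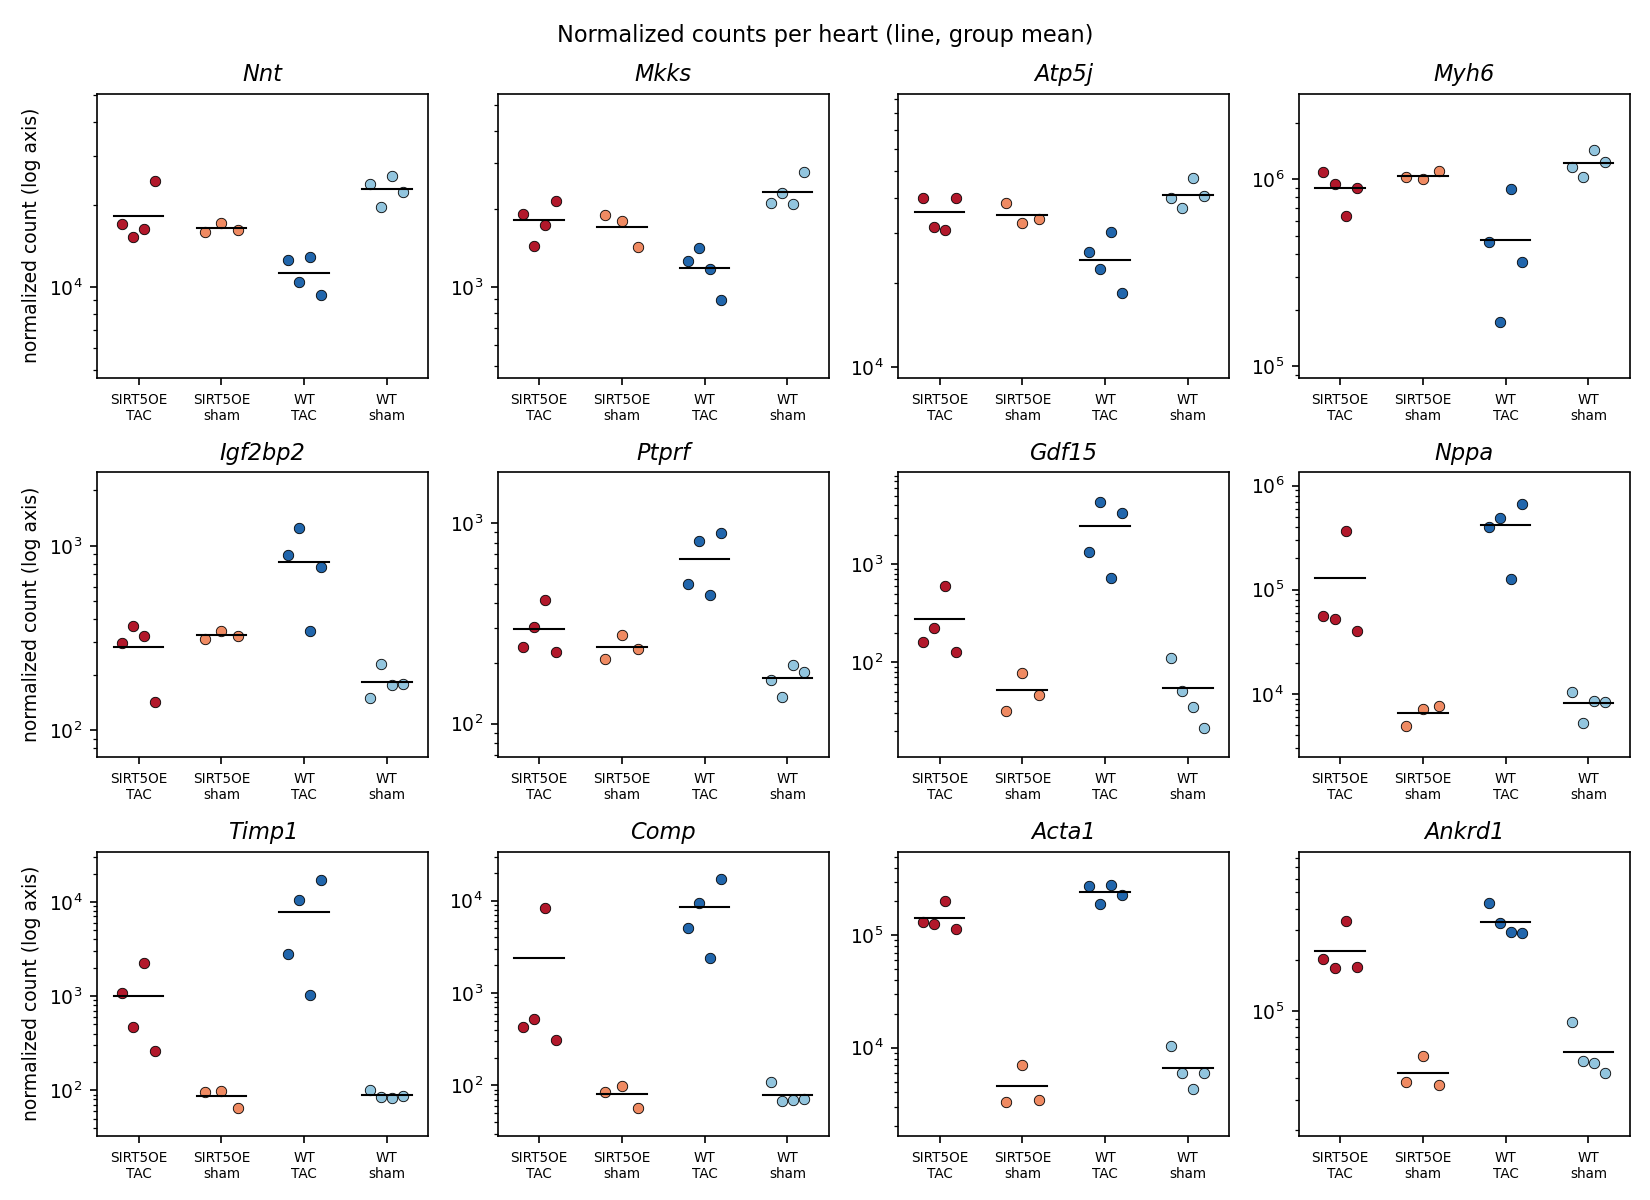
Normalized counts (log axis) in each heart for 12 genes; points are hearts in 4 groups and lines are group means. Nnt (the model of small p), Mkks, Atp5j and Myh6 average lowest in the WT TAC hearts, Igf2bp2, Ptprf, Gdf15, Nppa, Timp1 and Comp average highest there, and Acta1 and Ankrd1 are high in the TAC hearts of both genotypes.

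Among protein-coding genes of mean count of at least 100, the 8 most negative interactions with an unadjusted p under 0.05 were those of Ccl21b, Zbtb9, Sprr1a, Gdf15, Lcn2, Comp, Serpina3n and Cxcr6. Gdf15, a stress-induced hormone of the TGF-beta family, had 162, 226, 602 and 126 in SIRT5OE TAC hearts, 31.9, 78.1 and 46.7 in SIRT5OE sham hearts, 1349.5, 4324, 731 and 3358 in WT TAC hearts and 111, 51.3, 34.6 and 21.5 in WT sham hearts. All SIRT5OE TAC hearts lay under all WT TAC hearts. Gdf15 rose by 5.39 in WT (adjusted p = 2.93e-05), against 2.21 in SIRT5OE (adjusted p = 0.0586), an interaction of -3.18 (SE 0.88, 95% interval -5.04 to -1.32, adjusted p = 0.349). Sprr1a, a cornified-envelope protein induced in stressed cardiomyocytes, had 208, 76.9, 801 and 20.6 in SIRT5OE TAC hearts and 7.72, 18.0 and 4.23 in SIRT5OE sham hearts, against 769, 2603, 269 and 8859 in WT TAC hearts and 5.38, 14.0, 4.05 and 13.3 in WT sham hearts. Its values overlapped between the genotypes after TAC, and its interaction was -3.57 (SE 1.51).

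Lcn2, the iron-siderophore carrier lipocalin, had 165.8, 100.7, 189.5 and 81.3 in SIRT5OE TAC hearts and 601, 3839.6, 182 and 2216 in WT TAC hearts, with an interaction of -2.99 (SE 0.98). Serpina3n, an acute-phase serine protease inhibitor, had 2669, 1634, 8849 and 1052 in SIRT5OE TAC hearts and 10851, 38099.9, 3976 and 38313 in WT TAC hearts, with an interaction of -2.87 (SE 0.96). Cxcr6, a chemokine receptor of T cells, had 58.3, 24.2, 172 and 35.9 in SIRT5OE TAC hearts and 207, 410.1, 39.3 and 685 in WT TAC hearts, with an interaction of -2.79 (SE 1.05). In Lcn2, Serpina3n and Cxcr6 the WT TAC replicate 3 value lay within the SIRT5OE TAC range. All 3 rose in WT (adjusted p = 0.000446, 9.77e-05 and 0.0034, limma) and none passed in SIRT5OE. Ccl21b and Zbtb9 also met the rule, but both were at 0 in some hearts and far above it in others of the same group, so their interactions of -7.50 and -5.96 are uncertain.

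The most positive interactions by the same rule included Aqp4, a water channel, with 50.9, 73.3, 24.5 and 132 in SIRT5OE TAC hearts and 294, 199.8 and 243 in SIRT5OE sham hearts, against 11.6, 0, 25.9 and 7.53 in WT TAC hearts and 174, 193, 345 and 295 in WT sham hearts (interaction 3.03, SE 1.08). Ces1d, a carboxylesterase that hydrolyses triglyceride, had 4223, 3756, 382 and 4037 in SIRT5OE TAC hearts and 8979, 7403 and 7930.4 in SIRT5OE sham hearts, against 490.5, 182, 1845 and 109 in WT TAC hearts and 7225, 6957, 7789 and 9011 in WT sham hearts. SIRT5OE TAC replicate 3 had a Ces1d value within the WT TAC range, and the interaction was 2.53 (SE 1.12). Cngb3, a cyclic nucleotide-gated channel subunit, and Poln, a DNA polymerase, had interactions of 2.57 (SE 0.93) and 2.54 (SE 0.92). Aqp4, Ces1d, Cngb3 and Poln all fell in WT (adjusted p between 0.000151 and 0.00053, limma). The remaining genes, Fam177a2 (8.41), Gm49388 (6.76) and Gm10184 (6.32), are uncertain. Fam177a2 and Gm49388 switched between 0 and high values within some groups, and Gm10184 did so only within WT sham. Gm10184 had 4723, 3420.3, 4397 and 4448 in SIRT5OE TAC hearts and 3116, 3669 and 3327 in SIRT5OE sham hearts. It had 0, 0, 0 and 14.0 in WT TAC hearts and 19.1, 3426, 0 and 3575 in WT sham hearts.

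Hypertrophy and fetal genes of the cardiomyocyte showed the stress response most directly. Over all kept genes, 3.12% rose in SIRT5OE and 17.3% in WT. Of 20 listed and kept, 11 rose in SIRT5OE and 17 in WT, with median responses of 1.57 in SIRT5OE and 2.64 in WT. The interaction was below 0 for 15, reached an unadjusted p under 0.05 for 10 (50% of the list, against 6.26% of all kept genes below 0), and passed for 0. The median interaction was -0.85, beside -0.0035 over all kept genes. Per heart, the mean log2 level of the list relative to the WT sham mean was 0.99 to 2.41 in SIRT5OE TAC hearts, -0.35 to 0.08 in SIRT5OE sham hearts, 2.06 to 3.17 in WT TAC hearts and -0.15 to 0.24 in WT sham hearts. Of the SIRT5OE TAC hearts, replicate 3 alone reached the WT TAC range, where it lay above WT TAC replicate 3.

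Nppa, atrial natriuretic peptide, had 56482, 52767, 365329 and 40060.5 in SIRT5OE TAC hearts, 4944, 7099 and 7711 in SIRT5OE sham hearts, 403755, 489753, 125391 and 667500 in WT TAC hearts and 10383, 5242, 8617 and 8302 in WT sham hearts. SIRT5OE TAC replicates 1, 2 and 4 lay under every WT TAC heart and replicate 3 lay inside their range. Nppa rose by 3.65 in SIRT5OE (adjusted p = 0.00577) and by 5.50 in WT (adjusted p = 2.32e-05), an interaction of -1.85 (SE 0.85, adjusted p = 0.374). Myh7, the slow fetal myosin heavy chain, had 75645, 52901, 272470 and 63432 in SIRT5OE TAC hearts, 13647, 22289.9 and 27994 in SIRT5OE sham hearts, 502995, 402950, 110035 and 485957 in WT TAC hearts and 24031, 19695, 22014 and 18138 in WT sham hearts. It rose by 2.16 in SIRT5OE (adjusted p = 0.0288) and by 3.95 in WT (adjusted p = 5.65e-05), with an interaction of -1.79 (SE 0.72). Rcan1, a calcineurin-induced regulator of calcineurin, had 11504, 8878, 16864 and 5711 in SIRT5OE TAC hearts and 4154, 4877 and 3475 in SIRT5OE sham hearts, against 34150.4, 40180.2, 17282 and 29066 in WT TAC hearts and 5204, 4369, 3988 and 4139.9 in WT sham hearts. All 4 SIRT5OE TAC hearts lay under all 4 WT TAC hearts, and the interaction was -1.44 (SE 0.41, adjusted p = 0.349).

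Acta1, skeletal muscle alpha-actin, is a fetal gene with an interaction near 0. Its counts were 130414, 125423, 203447 and 114628 in SIRT5OE TAC hearts, 3276, 6956 and 3414 in SIRT5OE sham hearts, 273090, 190990, 278466 and 228931 in WT TAC hearts and 10282, 5957, 4311 and 5939.9 in WT sham hearts. It rose by 5.03 in SIRT5OE (adjusted p = 1.60e-07) and by 5.25 in WT (adjusted p = 2.57e-08), and the interaction was -0.22 with a 95% interval of -1.06 to 0.62. Acta1 was lower in 3 of 4 SIRT5OE TAC hearts than in every WT TAC heart, and the genotype difference was -0.78 after TAC and -0.56 in sham.

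Over all kept genes, 1.86% fell and 3.12% rose in SIRT5OE, and 16.5% fell and 17.3% rose in WT. The list for the adult contractile apparatus held 15 genes, of which 0 fell and 0 rose in SIRT5OE, and 6 fell and 2 rose in WT. An unadjusted interaction p under 0.05 was reached by 2, all above 0 (13.3%, beside 13.2% of all kept genes). Myh6, the fast adult myosin heavy chain, had 1096600, 942382, 636214 and 899000 in SIRT5OE TAC hearts, 1025390, 1008090 and 1104310 in SIRT5OE sham hearts, 462844, 173087, 887822 and 361060 in WT TAC hearts and 1165160, 1026730, 1437460 and 1243550 in WT sham hearts. It fell by 1.59 in WT (adjusted p = 0.00277), against -0.25 in SIRT5OE (adjusted p = 0.744), an interaction of 1.34 (SE 0.52). The WT TAC replicate 3 value lay among the SIRT5OE TAC hearts. Myl2, the ventricular regulatory light chain, had an interaction of 0.62 (SE 0.26).

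Of 23 genes of calcium cycling and ion channels, 1 fell in SIRT5OE and 14 in WT, where 1.86% of all kept genes fell in SIRT5OE and 16.5% in WT. At an unadjusted interaction p under 0.05, 7 were above 0 and 1 below 0 (34.8% in all, beside 13.2% of all kept genes). Kcnj3 had 2603, 2845, 1436 and 3483 in SIRT5OE TAC hearts and 6016, 4205 and 4666 in SIRT5OE sham hearts, against 834, 466, 1748 and 376 in WT TAC hearts and 4027, 4489, 4322 and 4667 in WT sham hearts (interaction 1.63, SE 0.53).

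Most activated-fibroblast genes and collagens rose in each genotype, where 3.12% of all kept genes rose in SIRT5OE and 17.3% in WT. Activated-fibroblast genes numbered 21: 17 rose in SIRT5OE and 20 in WT, with median responses of 2.39 in SIRT5OE and 3.73 in WT. The interaction was below 0 for 20 of them (median -1.39). It had an unadjusted p under 0.05 for 8 (38.1%, beside 6.26% of all kept genes below 0). Such a p, in either direction, was reached by 1634 of the 5631 genes called in WT. The mean level of the list per heart, relative to WT sham, was 1.60 to 4.07 in SIRT5OE TAC hearts, -0.28 to 0.26 in SIRT5OE sham hearts, 3.07 to 4.74 in WT TAC hearts and -0.14 to 0.10 in WT sham hearts. SIRT5OE TAC replicate 3 alone reached the WT TAC range. Collagens gave 18 of 20 risen in SIRT5OE and 19 in WT, with medians of 1.43 in SIRT5OE and 2.25 in WT. At an unadjusted interaction p under 0.05, 7 collagens lay below 0 (35%, beside 6.26% of all kept genes).

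Comp, a cartilage matrix protein that marks myofibroblasts, had 428, 523, 8286 and 311 in SIRT5OE TAC hearts, 85.4, 98.5 and 56.6 in SIRT5OE sham hearts, 5108, 9433, 2389 and 17036 in WT TAC hearts and 108, 67.0, 69.8 and 70.6 in WT sham hearts. It rose by 3.46 in SIRT5OE (adjusted p = 0.0295) and by 6.41 in WT (adjusted p = 5.41e-05), an interaction of -2.95 (SE 1.16). Ltbp2, a latent TGF-beta binding family protein of elastic fibres, had 1876, 1762, 12245 and 1045 in SIRT5OE TAC hearts and 8599, 16253, 5638 and 23934 in WT TAC hearts (interaction -2.65, SE 0.87). Postn, periostin, had 18469, 15497, 104152 and 14311 in SIRT5OE TAC hearts and 58814, 113834, 38821 and 77019 in WT TAC hearts (interaction -1.39, SE 0.70, adjusted p = 0.399). Thbs1, thrombospondin 1, had 2207, 1719, 8279 and 1847 in SIRT5OE TAC hearts and 5239, 19976, 3303 and 16838 in WT TAC hearts (interaction -1.67, SE 0.81). In each of Comp, Ltbp2, Postn and Thbs1 the highest SIRT5OE TAC heart was replicate 3, and the others lay under every WT TAC heart.

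Col1a1, the alpha-1 chain of type I collagen, had 9298, 8151, 20106 and 5517 in SIRT5OE TAC hearts, 3102, 3579.7 and 3480.0 in SIRT5OE sham hearts, 19339.5, 34519, 14363 and 36588 in WT TAC hearts and 3263, 3814, 3159 and 3048 in WT sham hearts. It rose by 1.50 in SIRT5OE (adjusted p = 0.0245) and by 2.88 in WT (adjusted p = 3.10e-05), an interaction of -1.38 (SE 0.48). The transgene stands in the 3′ UTR of this locus, so the transgene and the genotype cannot be told apart in the Col1a1 value. Col4a2, a basement membrane collagen, had an interaction of -0.63 (SE 0.24) and Fbn1, fibrillin 1, one of -0.80 (SE 0.38). Both rose in each genotype, Col4a2 with an adjusted p of 0.0204 in SIRT5OE and 3.40e-05 in WT, and Fbn1 with 0.0106 in SIRT5OE and 3.55e-05 in WT (limma).

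Of 26 genes of matrix enzymes and their inhibitors, 7 rose in SIRT5OE and 22 in WT, where 3.12% of all kept genes rose in SIRT5OE and 17.3% in WT. At an unadjusted interaction p under 0.05, 11 lay below 0 and 1 above 0 (46.2%, beside 13.2% of all kept genes), and 0 passed. Timp1, an inhibitor of metalloproteinases, had 1087, 472, 2222 and 258 in SIRT5OE TAC hearts, 97.0, 97.8 and 65.3 in SIRT5OE sham hearts, 2822, 10440, 1034 and 17125 in WT TAC hearts and 102, 85.4, 82.9 and 87.2 in WT sham hearts. It rose by 3.10 in SIRT5OE (adjusted p = 0.0311) and by 5.73 in WT (adjusted p = 5.88e-05), an interaction of -2.63 (SE 1.05). Mmp14, a membrane-bound collagenase, had 1185, 1327, 1392 and 808 in SIRT5OE TAC hearts, 887, 860.1 and 792 in SIRT5OE sham hearts, 2094, 2335, 1396 and 2315 in WT TAC hearts and 714, 893, 695 and 562 in WT sham hearts. Its highest SIRT5OE TAC heart lay just under the lowest WT TAC heart, and the interaction was -1.05 (SE 0.28, adjusted p = 0.349). Mmp23 gave -1.07 (SE 0.34), Adamts4, an aggrecan-cleaving protease, -2.52 (SE 0.92) and Plod3, a collagen lysyl hydroxylase, -0.70 (SE 0.27). Of these, Mmp23 rose in both genotypes, and Mmp14, Adamts4 and Plod3 rose in WT and did not pass in SIRT5OE.

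Of 22 elastic fibre and proteoglycan genes, 14 rose and 2 fell in SIRT5OE, and 16 rose and 2 fell in WT. Over all kept genes, 3.12% rose and 1.86% fell in SIRT5OE, and 17.3% rose and 16.5% fell in WT. The interaction was below 0 for 15 of the 22 (median -0.34). At an unadjusted interaction p under 0.05, 3 lay below 0 and 2 above 0 (22.7%, beside 13.2% of all kept genes). The 2 above 0 at that p were Emilin2 and Nid2, nidogen 2. Emilin2, an elastin-interface glycoprotein, fell in SIRT5OE by 0.75 (adjusted p = 0.0323) and in WT by 1.66 (adjusted p = 2.32e-05, limma). Nid2 rose by 0.83 in SIRT5OE (adjusted p = 0.0263) with 0.09 in WT (adjusted p = 0.741, limma). In TGF-beta signalling 6 of 22 genes rose in SIRT5OE and 16 in WT, where 3.12% of all kept genes rose in SIRT5OE and 17.3% in WT. At an unadjusted p under 0.05, 6 (27.3%, beside 6.26% of all kept genes) were below 0. The ligand gene Tgfb1 had 1245, 1108, 1347 and 872 in SIRT5OE TAC hearts and 1650.3, 1910.2, 1493 and 2838 in WT TAC hearts, which did not overlap (interaction -0.60, SE 0.27). Tgfbr2, its type II receptor, had an interaction of -0.46 (SE 0.16). Anxa2, a calcium-dependent membrane-binding annexin, had -0.85 (SE 0.36). Resident-fibroblast genes had a median interaction of -0.10 and 14.3% at an unadjusted p under 0.05, near the 13.2% of all genes. Of the 14 resident-fibroblast genes, 5 rose and 0 fell in SIRT5OE (3.12% and 1.86% of all kept genes). In WT 9 rose and 2 fell (17.3% and 16.5% of all kept genes). Scara5, a ferritin receptor of resident fibroblasts, was 1 of the 2 that fell in WT, by 2.71 (adjusted p = 0.000251, limma). Its response was -1.34 in SIRT5OE (adjusted p = 0.101, limma).

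**Figure D4:**
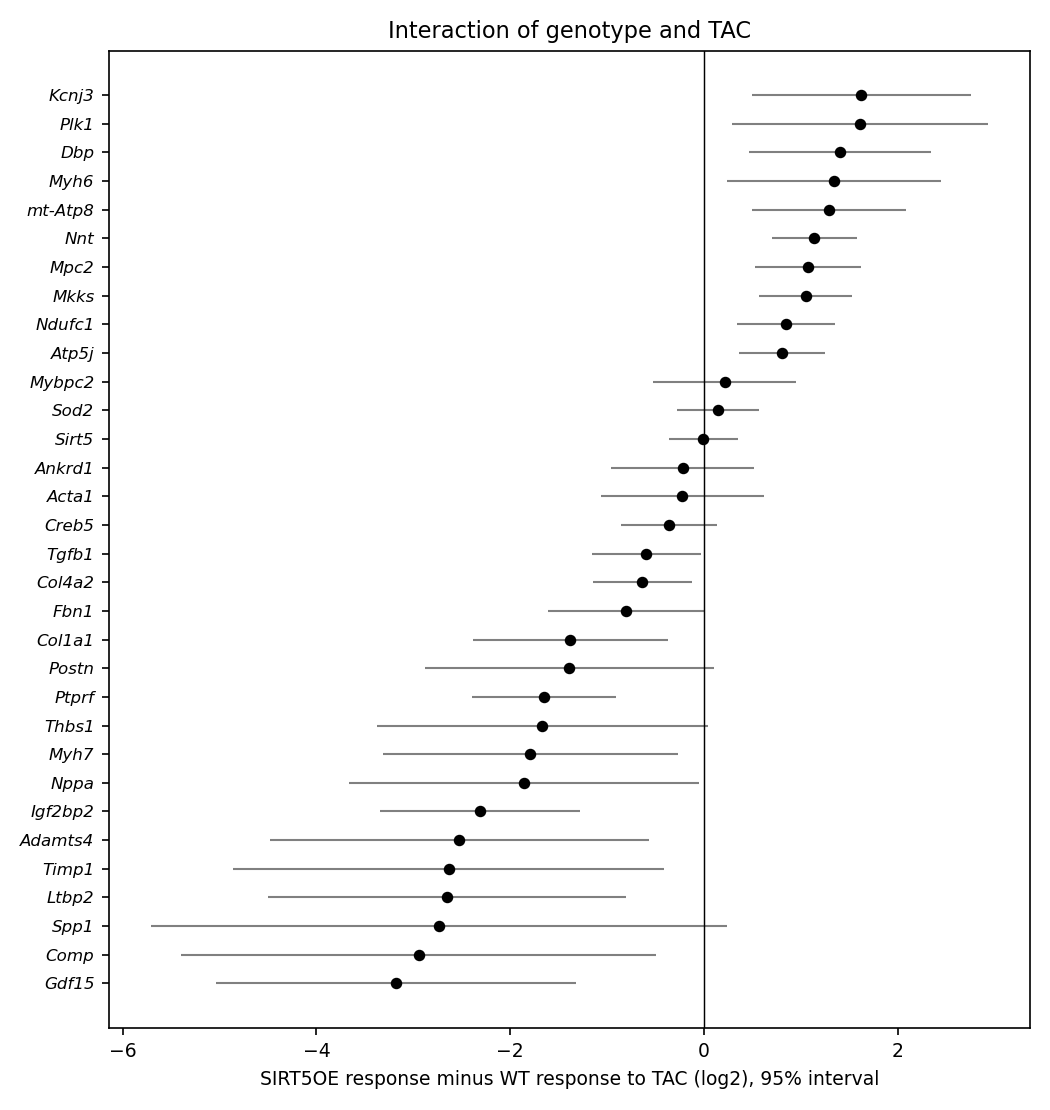
Interaction of genotype and TAC (SIRT5OE response minus WT response, log2) with its 95% interval for 32 named genes (Nnt by its model of small p); points left of 0 had the more negative response in SIRT5OE. Gdf15 (-3.18) and Comp (-2.95) lie lowest, Kcnj3 (1.63) and Plk1 (1.61) highest, and the intervals of Fbn1, Acta1, Ankrd1, Creb5, Mybpc2, Sirt5, Sod2, Postn, Thbs1 and Spp1 hold 0.

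Immune and inflammatory genes were read against the 3.12% of all kept genes that rose in SIRT5OE and the 17.3% that rose in WT. Of 31 chemokine and cytokine genes 0 rose in SIRT5OE and 16 in WT, with medians of 0.15 in SIRT5OE and 0.89 in WT, and 7 (22.6%, beside 6.26% of all kept genes) lay below 0 at an unadjusted interaction p under 0.05. Of 16 T cell, B cell and neutrophil genes, 0 rose in SIRT5OE and 3 in WT, and of 18 antigen presentation and interferon genes, 0 rose in SIRT5OE and 2 in WT, which is near or under the share of all genes. The mean level of the chemokine and cytokine list per heart was taken relative to WT sham. It was -0.08 to 0.37 in SIRT5OE TAC hearts and -0.04 to 0.07 in SIRT5OE sham hearts. In WT it was 0.59 to 1.14 in TAC hearts and -0.12 to 0.17 in sham hearts. The TAC hearts of the genotypes did not overlap on the chemokine and cytokine list, replicate 3 of SIRT5OE included. Socs3, the feedback inhibitor of interleukin-6 family signalling, had 316, 262, 332 and 194 in SIRT5OE TAC hearts, 218, 229 and 174 in SIRT5OE sham hearts, 488, 983, 521 and 1171 in WT TAC hearts and 223, 215, 234 and 205 in WT sham hearts. It rose by 1.74 in WT (adjusted p = 0.000143), against 0.39 in SIRT5OE (adjusted p = 0.427), an interaction of -1.35 (SE 0.37).

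Macrophage and monocyte genes gave 3 of 24 risen in SIRT5OE and 16 in WT, where 3.12% of all kept genes rose in SIRT5OE and 17.3% in WT. At an unadjusted interaction p under 0.05, 6 lay below 0 (25%, beside 6.26% of all kept genes). C1qc, a complement subunit made by macrophages, had 2415, 1847, 1974 and 1376 in SIRT5OE TAC hearts and 2553, 2617, 2666 and 3020.0 in WT TAC hearts (interaction -0.50, SE 0.20). Spp1, osteopontin, had 276, 91.0, 428 and 40.1 in SIRT5OE TAC hearts, 23.4, 14.0 and 9.42 in SIRT5OE sham hearts, 354, 1866, 140.0 and 5544 in WT TAC hearts and 18.5, 30.7, 6.78 and 6.28 in WT sham hearts, an interaction of -2.74 with an interval of -5.71 to 0.23 that holds 0. Retnlg, a neutrophil transcript, was low throughout, with 7.85, 6.15, 3.33 and 3.99 in SIRT5OE TAC hearts and 18.0, 38.7, 35.3 and 45.9 in WT TAC hearts (interaction -2.70, SE 0.90), and it was the only gene of 16 T cell, B cell and neutrophil genes with an unadjusted p under 0.05. Antigen presentation and interferon genes gave 5.56% and endothelial genes 9.52%, both under the 13.2% of all genes. Icam1, the endothelial adhesion molecule for leukocytes, had 814, 836, 866 and 593 in SIRT5OE TAC hearts and 1091, 1218, 977 and 1498 in WT TAC hearts, which did not overlap (interaction -0.56, SE 0.22).

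Genes of mitochondrial fuel oxidation mostly had interactions above 0 and fell in WT. Over all kept genes, 1.86% fell in SIRT5OE and 16.5% in WT. Of 28 genes of fatty acid uptake and oxidation, 7 fell in SIRT5OE and 27 in WT, with median responses of -0.43 in SIRT5OE and -0.96 in WT. The interaction was above 0 for 27 of them and had an unadjusted p under 0.05 for 14 (50%, against 6.96% of all kept genes above 0), and 0 passed. Per heart the mean of the list relative to WT sham was -0.87 to -0.27 in SIRT5OE TAC hearts, -0.05 to 0.16 in SIRT5OE sham hearts, -1.31 to -0.64 in WT TAC hearts and -0.08 to 0.08 in WT sham hearts. Eci1, an isomerase for unsaturated fatty acids, had 10821, 9217, 6303 and 10284 in SIRT5OE TAC hearts, 12909.5, 11899 and 12711 in SIRT5OE sham hearts, 5849, 3851, 7819 and 4763 in WT TAC hearts and 13926, 12646, 14399.8 and 13242 in WT sham hearts. It fell by 1.33 in WT (adjusted p = 0.00011), against -0.48 in SIRT5OE (adjusted p = 0.17), an interaction of 0.85 (SE 0.27). Etfa, an electron carrier from acyl-CoA dehydrogenases, fell by 1.01 in WT (adjusted p = 0.000165) and had an interaction of 0.65 (SE 0.22).

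In the TCA cycle and pyruvate dehydrogenase list, 1 of 25 genes fell in SIRT5OE and 23 in WT. The shares of all kept genes were 1.86% in SIRT5OE and 16.5% in WT. At an unadjusted interaction p under 0.05, 11 were above 0 (44%, beside 6.96% of all kept genes). Mpc2, a subunit of the mitochondrial pyruvate carrier, had 13249, 12385, 11469 and 16434 in SIRT5OE TAC hearts, 12953, 12593 and 12019.5 in SIRT5OE sham hearts, 8704, 6606, 11125 and 5478 in WT TAC hearts and 14958, 14314, 18577 and 13718 in WT sham hearts. All SIRT5OE TAC hearts lay above all WT TAC hearts, with an interaction of 1.07 (SE 0.26, adjusted p = 0.349). Fh1, fumarate hydratase, had 0.61 (SE 0.18).

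Of 35 nuclear genes of complex I, 1 fell in SIRT5OE and 31 in WT, and 16 (45.7%) were above 0 at an unadjusted interaction p under 0.05. Of 35 nuclear genes of complexes III to V, 0 fell in SIRT5OE and 28 in WT, and 18 (51.4%) were above 0 at that p. Over all kept genes, 1.86% fell in SIRT5OE, 16.5% fell in WT and 6.96% were above 0 at that p. Atp5j, coupling factor 6 of ATP synthase, had 39984, 31564, 30700.5 and 39885 in SIRT5OE TAC hearts, 38374, 32588 and 33562 in SIRT5OE sham hearts, 25652, 22305, 30225 and 18306 in WT TAC hearts and 39858, 36982, 47083 and 40508 in WT sham hearts. SIRT5OE TAC hearts all lay above WT TAC hearts, and Atp5j fell by 0.79 in WT (adjusted p = 0.000651), against 0.02 in SIRT5OE (adjusted p = 0.957), an interaction of 0.81 (SE 0.21). Cox7b, a cytochrome c oxidase subunit, had 0.68 (SE 0.18), Ndufc1 had 0.85 (SE 0.24) and Ndufs4 0.68 (SE 0.21), both complex I subunits. All of Cox7b, Ndufc1 and Ndufs4 fell in WT (adjusted p = 0.000285, 0.0102 and 0.00146, limma).

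All 13 mitochondrially encoded genes had an interaction above 0, and 9 had an unadjusted p under 0.05 (69.2%, beside 6.96% of all kept genes above 0). Of the 13, 0 fell in SIRT5OE and 12 in WT, where 1.86% of all kept genes fell in SIRT5OE and 16.5% in WT. Median responses were -0.16 in SIRT5OE and -0.87 in WT. The median interaction was 0.73, but 0.08 after quantile normalization, which fixes the spread of the most abundant transcripts in every heart. mt-Atp8, an ATP synthase subunit, had 102200, 147287, 132296 and 240105 in SIRT5OE TAC hearts, 132096, 119313 and 121075 in SIRT5OE sham hearts, 84417, 90752, 63429 and 40755 in WT TAC hearts and 143473, 135601, 168143 and 108236 in WT sham hearts (interaction 1.29, SE 0.37), and mt-Nd6, the complex I subunit encoded on the other strand of the mitochondrial genome, had 0.73 (SE 0.23). mt-Atp8 overlaps mt-Atp6 on the genome and its reads may be divided between them. The nuclear respiratory genes were short, with a median of 1005 bases of the longest transcript for complex I and 929.5 for complexes III to V. The 1543 shortest of 15423 protein-coding genes, of up to 1423 bases, had a median interaction of -0.01, with 139 above 0 and 85 below 0 at an unadjusted p under 0.05, where all 15423 had 1083 above 0 and 984 below 0. The part of transcript length in these values was not tested.

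Among regulators of mitochondrial biogenesis, 1 of 17 fell in SIRT5OE and 12 in WT, where 1.86% of all kept genes fell in SIRT5OE and 16.5% in WT. At an unadjusted interaction p under 0.05, 5 (29.4%, beside 6.96% of all kept genes) were above 0. Tfb2m, a mitochondrial transcription factor, had 4535, 4755, 5177 and 5607 in SIRT5OE TAC hearts, 4856, 4553 and 4205 in SIRT5OE sham hearts, 3554, 3105, 4356 and 2772 in WT TAC hearts and 5622, 4509, 5243 and 4729 in WT sham hearts (interaction 0.70, SE 0.18), and Mfn1, a mitofusin, 0.70 (SE 0.24). Glycolysis genes went both ways, 4 below 0 and 3 above 0 of 21 (33.3%, beside 13.2% of all kept genes). Slc16a3, the lactate exporter MCT4, had 182, 131, 473 and 98.3 in SIRT5OE TAC hearts and 418, 1259, 219.8 and 1512 in WT TAC hearts, and it rose by 3.01 in WT (adjusted p = 0.000537), against 0.87 in SIRT5OE (adjusted p = 0.398).

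Of 17 sirtuin and NAD genes, 3 lay above 0 and 1 below 0 at an unadjusted interaction p under 0.05 (23.5%, beside 13.2% of all kept genes). Sirt6, a nuclear sirtuin, was the gene below 0, with 233, 247, 238 and 190.0 in SIRT5OE TAC hearts and 291, 331, 296 and 429 in WT TAC hearts, which did not overlap (interaction -0.74, SE 0.23). Antioxidant genes gave 5 below 0 and 1 above 0 of 20 (30%). Txnrd1, thioredoxin reductase 1 (-0.52, SE 0.15), and Srxn1, sulfiredoxin (-0.60, SE 0.20), rose in WT (adjusted p = 0.00268 for Txnrd1 and 0.000229 for Srxn1, limma) and did not pass in SIRT5OE. Sod2, the mitochondrial superoxide dismutase, fell by 0.56 in WT (adjusted p = 0.00512), had a response of -0.41 in SIRT5OE (adjusted p = 0.108) and an interaction of 0.14 (95% interval -0.28 to 0.57). Pycr1, a mitochondrial enzyme of proline synthesis, was the only one of 17 integrated stress response genes with an unadjusted p under 0.05, at -1.63 (SE 0.44), and that share of the list (5.88%) lay under the 13.2% of all kept genes. It had 124, 106, 183 and 87.5 in SIRT5OE TAC hearts, 87.2, 79.6 and 76.2 in SIRT5OE sham hearts, 210.1, 444, 196 and 519.8 in WT TAC hearts and 78.7, 65.7, 61.5 and 64.0 in WT sham hearts. Of the endoplasmic reticulum chaperones, Hyou1 fell by 0.56 in SIRT5OE (adjusted p = 0.0271) with -0.03 in WT (adjusted p = 0.878), and Herpud1, a membrane protein of protein degradation there, had an interaction of 0.64 (SE 0.26).

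Cell cycle genes had the larger median response in SIRT5OE. Of 20, 4 rose in SIRT5OE and 2 in WT, where 3.12% of all kept genes rose in SIRT5OE and 17.3% in WT. The WT count was thus under the share of all genes. Median responses of the list were 1.06 in SIRT5OE and 0.11 in WT. The interaction was above 0 for 18, with 4 at an unadjusted p under 0.05 (20%, beside 6.96% of all kept genes) and 0 passing. Per heart the mean of the list relative to WT sham was 0.58 to 1.04 in SIRT5OE TAC hearts, -0.44 to 0.07 in SIRT5OE sham hearts, -0.44 to 1.11 in WT TAC hearts and -0.38 to 0.20 in WT sham hearts. WT TAC replicate 3 was the highest of all 15 hearts, and the other WT TAC hearts lay under every SIRT5OE TAC heart. Plk1, a mitotic kinase, had 81.7, 61.7, 44.9 and 46.7 in SIRT5OE TAC hearts, 13.2, 31.3 and 21.8 in SIRT5OE sham hearts, 21.5, 21.6, 75.3 and 19.5 in WT TAC hearts and 45.0, 38.8, 23.6 and 29.9 in WT sham hearts (interaction 1.61, SE 0.62), and the WT TAC replicate 3 value was the outlying one. Mcm3, a subunit of the replicative helicase, rose by 0.75 in SIRT5OE (adjusted p = 0.0357) with 0.09 in WT (adjusted p = 0.746) and an interaction of 0.67 (SE 0.27). Cks2, a cyclin-dependent kinase subunit, rose in both genotypes and is given below.

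Immediate early genes, which cells switch on within minutes of a stimulus or of handling, numbered 2 of 19 risen in SIRT5OE and 13 in WT. The shares of all kept genes that rose were 3.12% in SIRT5OE and 17.3% in WT. An unadjusted interaction p under 0.05 was found for 10.5% of the list, beside 13.2% of all kept genes. Junb had 816, 855, 1251 and 648 in SIRT5OE TAC hearts, 478, 614 and 559 in SIRT5OE sham hearts, 1531, 3447, 1175 and 5565 in WT TAC hearts and 639, 536, 401 and 482 in WT sham hearts (interaction -1.59, SE 0.53). Among 16 clock genes, 5 lay above 0 and 3 below 0 at an unadjusted interaction p under 0.05 (50%). Nr1d2, a repressor of the clock loop, had 5448, 7337, 6973 and 9904 in SIRT5OE TAC hearts, 7417, 7721 and 8291 in SIRT5OE sham hearts, 3374, 3454, 4971 and 3358 in WT TAC hearts and 7373, 7622, 6312 and 8204 in WT sham hearts (interaction 0.87, SE 0.23), and its SIRT5OE TAC hearts all lay above its WT TAC hearts. Dbp, an output transcription factor of the clock, had 3361, 3526, 5124 and 5986 in SIRT5OE TAC hearts and 1647, 995, 3490.0 and 2438 in WT TAC hearts (interaction 1.41, SE 0.44). The hour at which each heart was taken is not given in the sources used here, and its part in these values was not tested.

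A further set rose or fell in both genotypes and was chosen for an interaction whose 95% interval lay within -1 to 1, so its members may still differ by nearly 1 log2 unit. By rule these were the 8 protein-coding genes of largest mean response among the 402 of such an interval. Ankrd1, a stretch-induced cardiac ankyrin-repeat protein, had 202597, 180119, 337868 and 181861 in SIRT5OE TAC hearts, 38009.5, 54582 and 36647 in SIRT5OE sham hearts, 434433, 328794, 290488 and 287654 in WT TAC hearts and 86303, 50934, 49071 and 43267 in WT sham hearts. It rose by 2.36 in SIRT5OE (adjusted p = 0.000373) and by 2.58 in WT (adjusted p = 1.41e-05), an interaction of -0.22 (95% interval -0.96 to 0.52). Mybpc2, the fast skeletal myosin-binding protein C, rose by 1.61 in SIRT5OE (adjusted p = 0.00491) and by 1.40 in WT (adjusted p = 0.000425), an interaction of 0.22 (95% interval -0.52 to 0.96). Esm1, an endothelial secreted proteoglycan (0.14, 95% interval -0.65 to 0.92), Creb5, a leucine zipper transcription factor (-0.36, 95% interval -0.85 to 0.13), S100a6, a calcium-binding protein (-0.03, 95% interval -0.67 to 0.61), Pqlc3 (-0.23, 95% interval -0.97 to 0.52) and Cks2 (0.07, 95% interval -0.72 to 0.85) also rose in both genotypes. Tlcd4 fell in both, by 1.36 in SIRT5OE (adjusted p = 0.0131) and by 1.45 in WT (adjusted p = 0.000547), with an interaction of 0.09 (95% interval -0.71 to 0.89). With 1 heart left out in turn the interaction ran from -0.43 to -0.04 for Ankrd1 and from -0.51 to -0.06 for Pqlc3. S100a6, Esm1 and Pqlc3 were highest in SIRT5OE TAC replicate 3 among the SIRT5OE TAC hearts.

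**Figure D5:**
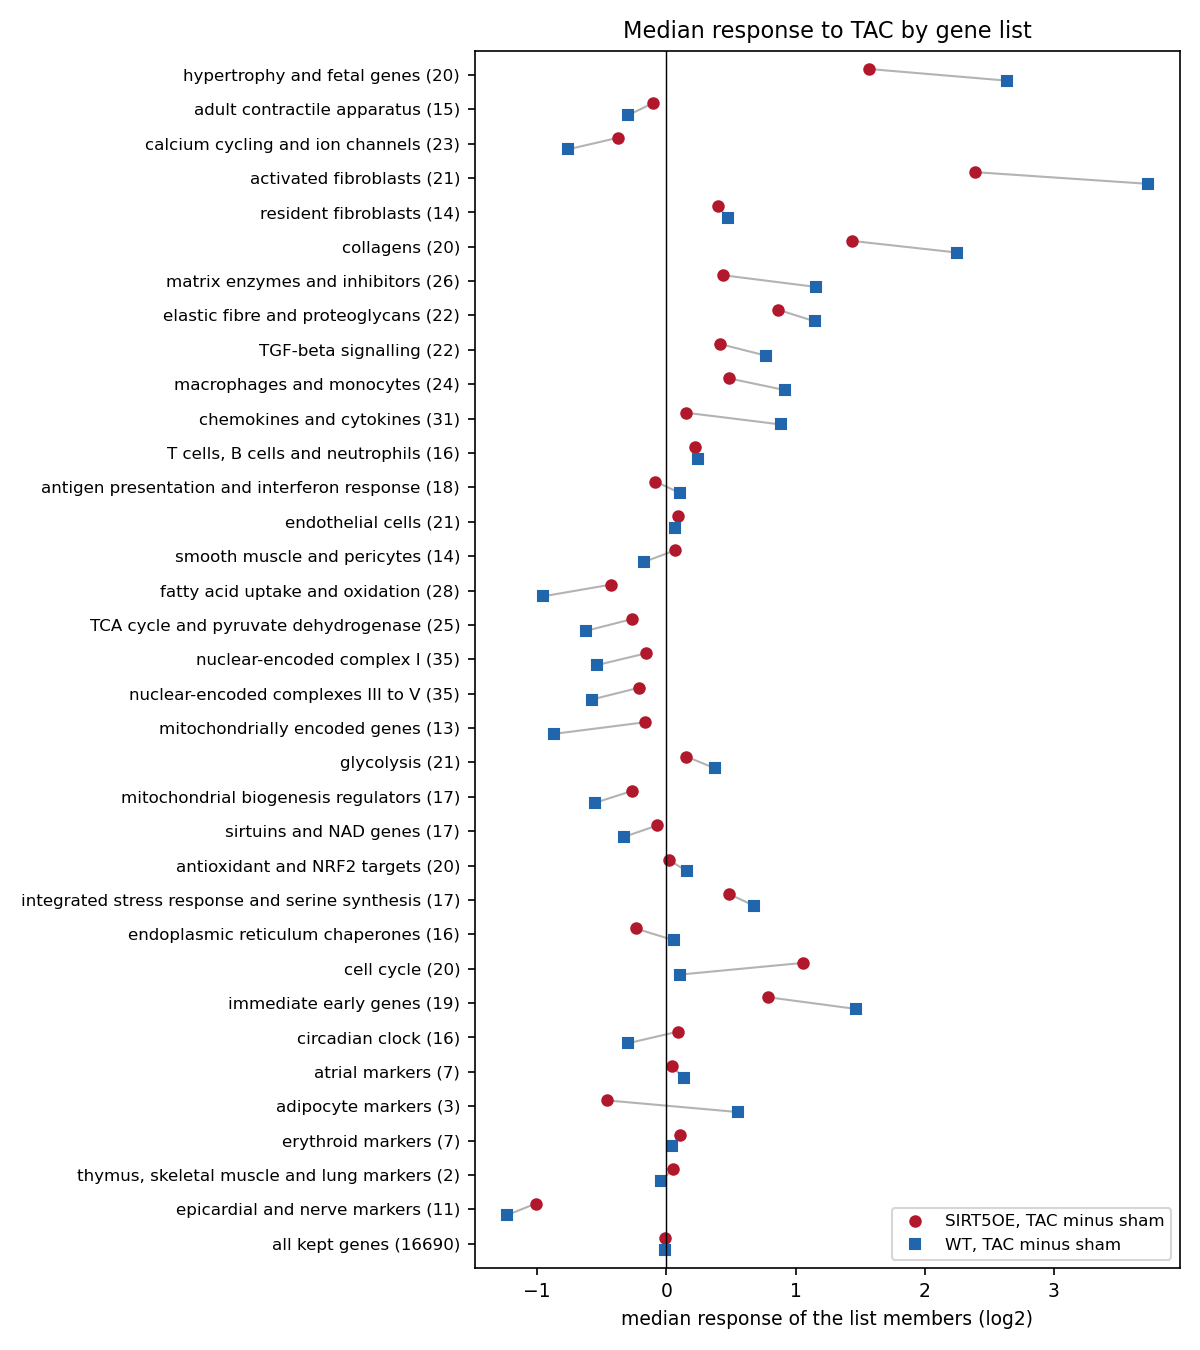
Median response to TAC (log2) of the members of each gene list in SIRT5OE hearts (circles, upper) and WT hearts (squares, lower), with the number of kept genes in brackets and all kept genes in the last line. The SIRT5OE median lies nearer 0 in most lists, for example 2.39 in SIRT5OE and 3.73 in WT for activated fibroblasts and -0.43 in SIRT5OE and -0.96 in WT for fatty acid uptake and oxidation, while cell cycle genes have 1.06 in SIRT5OE and 0.11 in WT.

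Lists for other tissue in the samples gave few such values. The filter on low values kept 7 of 10 atrial genes, 3 of 9 adipocyte genes, 7 of 7 erythroid genes and 2 of 9 thymus, skeletal muscle and lung genes, and 0 of these had an unadjusted interaction p under 0.05. Mean log2 levels per heart overlapped between the genotypes. For erythroid genes they were, relative to WT sham, -0.36 to 0.59 in SIRT5OE TAC hearts, -0.25 to -0.05 in SIRT5OE sham hearts, -0.54 to 0.88 in WT TAC hearts and -0.25 to 0.22 in WT sham hearts, and for atrial genes -0.13 to 0.80 in SIRT5OE TAC hearts, 0.08 to 0.48 in SIRT5OE sham hearts, -0.03 to 0.67 in WT TAC hearts and -0.32 to 0.14 in WT sham hearts. Their part in the results above was not tested. Of 11 epicardial and nerve genes 1 had an unadjusted p under 0.05, Dbh, the noradrenaline-making enzyme of sympathetic nerves, with 63.7, 40.9, 44.3 and 33.5 in SIRT5OE TAC hearts, 135, 72.5 and 75.2 in SIRT5OE sham hearts, 17.5, 6.43, 24.2 and 28.4 in WT TAC hearts and 115, 143, 124 and 80.6 in WT sham hearts (interaction 1.67, SE 0.57). Smooth muscle and pericyte genes gave 1 above 0 and 2 below 0 of 14 (21.4%, beside 13.2% of all kept genes).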

How the data were processed

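Total RNA of 15 mouse hearts was ribodepleted and sequenced on a HiSeq4000. Per the study's methods, reads were checked with FastQC, assigned to Ensembl mouse transcripts with kallisto (version 0.43.1 in the submitters' processing notes) and summed to genes with tximport, and the authors scaled counts by DESeq2 size factors. The authors deposited these normalized counts, a signal per gene relative to the library's size factor. Unscaled counts were not used here and whole reads could not be recovered, so no count model was fitted, and counting intervals are not given because the read depth is unknown. The deposited columns each matched 1 labelled heart.

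Values were taken as log2(normalized count + 1) for genes of at least 10 in at least 3 hearts. limma 3.58.1 (R 4.3.3) fitted 4 group means over all 15 hearts with a mean-variance trend. Contrasts gave the response to TAC in each genotype and their difference, with Benjamini-Hochberg adjustment over 16690 genes and a threshold of 0.05. The first principal component (500 genes of largest variance) and the mitochondrially encoded share were tested by two-sided exact permutation of genotype within surgery. That permutation assumes no genotype difference in sham or in TAC hearts, so its p does not isolate the interaction. Functions were tested on simulated data.

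Gene lists and members were chosen with earlier results of these data known. Genes were named by rule: the 12 of smallest interaction p, the 8 most negative and the 8 most positive interactions among protein-coding genes of mean at least 100 and unadjusted p under 0.05, Sirt5 and genes named in the study's RNA-seq text, the 2 of smallest interaction p in each list, and 8 genes of largest response called in both genotypes with an interaction interval within -1 to 1. Most of these are described, and 1 is not reported here. Genes called only with a heart left out fall outside the rule and were chosen after their values were seen. Positions and transcript lengths (longest transcript) are from GENCODE vM21 on GRCm38. Alternatives were other pseudocounts, filters, scalings, array weights, no trend, a replicate block, each heart left out in turn and, added after seeing the data, rows of 1 symbol summed. The 3 surgery batches of the study are not tied to hearts in the labels, so no within-batch value could be computed.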

Additional observations from a re-analysis of the deposited data

Results flagged for a closer look

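The share of normalized counts in mitochondrially encoded genes had an interaction of 8.60 percentage points (-3.01 in SIRT5OE and -11.6 in WT, two-sided exact permutation p = 0.000816, adjusted p = 0.00163). Every SIRT5OE TAC heart lay above every WT TAC heart. Every SIRT5OE sham heart lay under every WT sham heart, and the p also draws on that sham difference.

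In 18 of the 282 groups of 4 hearts (6.38%), over the genes described, a single heart lay far from the other hearts of its group by Dixon's test. Chance flags about 1 in 20 groups. SIRT5OE TAC replicate 3 accounted for 6 of them: Nppa (365329, others 40060 to 56482), Postn (104152, others 14311 to 18469), Thbs1 (8279, others 1719 to 2207), Comp (8286, others 311 to 523), Ces1d (382, others 3756 to 4223) and Scara5 (306, others 1163 to 1190).

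SIRT5OE TAC replicate 4 accounted for 4: Icam1 (593, others 814 to 866), Nid2 (2410, others 1411 to 1492), Txnrd1 (3046, others 3552 to 3654) and Ccl21b (104, others 0). WT TAC replicate 3 accounted for 3: Myh7 (110035, others 402950 to 502995), Plk1 (75.3, others 19.5 to 21.6) and Nr1d2 (4971, others 3358 to 3454). WT TAC replicate 4 accounted for Gm10184 (14.0, others 0) and Ccl21b (9.84, others 524 to 695), and WT TAC replicate 1 for Rps13-ps2 (21.8, others 0). In sham hearts, WT sham replicate 1 stood apart in Comp (108, others 67.0 to 70.6) and WT sham replicate 4 in Pqlc3 (278, others 223 to 228).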

How the results depend on the processing

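The count of interaction calls was 0 under every alternative that kept all 15 hearts, and 0 to 45 with 1 heart left out (45 without WT TAC replicate 3, 1 without SIRT5OE TAC replicate 1). The SIRT5OE count of 831 became 330 with an absolute log2 value over 1 also required, 2135 with array weights and 430 without a trend, and 126 to 1203 with 1 heart left out. The WT count of 5631 became 1925 with the log2 value also required, and 4704 to 6318 with 1 heart left out. Same-numbered hearts did not deviate together (21 pairs, -0.298 to 0.078), so the numbers name hearts only: with the replicate block the SIRT5OE count was 460, the WT count 5353 and the interaction count 0. The first principal component's interaction ran from -42.6 to -21.8 with 1 heart left out, and the slope from 0.336 to 0.519.

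Interactions near 0 changed sign. Sirt5 was 0.00482 after upper-quartile scaling and 0.0622 after quantile normalization, and ran from -0.113 to 0.0631 with 1 heart left out. Cks2 was -0.0397 with array weights. With 1 heart left out, Cks2 ran from -0.148 to 0.268, S100a6 from -0.272 to 0.122, Tlcd4 from -0.117 to 0.418, Esm1 from -0.0373 to 0.290, Acta1 from -0.457 to 0.131 and Sod2 from -0.00811 to 0.241.

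Across the 92 genes, 2255 alternative values kept their direction and side of the threshold, 13 passed it only with a heart left out and 30 changed sign, in 7 genes. Of the list medians, 829 alternative values moved by less than 1 SD between SIRT5OE TAC hearts and 20 by more. With rows of 1 symbol summed, the counts were 828 in SIRT5OE and 5553 in WT. The normalized table gives no read depth, so precision rests on 3 or 4 hearts per group, and surgery batches and the hour of collection were not tested.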

Other observations

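Genes called after TAC in SIRT5OE alone numbered 114, of which 77 were higher and 37 lower, and 98 had a WT response of the same sign. The ribosomal protein genes Rpl35 and Rpl30, chosen after their values were seen, were among them. Rpl35 had a response of 1.178 in SIRT5OE and 0.15 in WT, an interaction of 1.03 (SE 0.27). Rpl30 had a response of 0.71 in SIRT5OE and -0.06 in WT, an interaction of 0.78 (SE 0.22). The median interaction over the 81 cytosolic ribosomal protein genes was -0.08, and 32 of the 81 lay above 0. How reads were divided between these genes and any pseudogene copies was not tested.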
